A study of Mus musculus with 16 samples.

Results

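Interferon response genes, 9 in number, were followed in mouse kidney: Isg15, Usp18, Irf7, Ifit1, Ifit3, Oasl2, Rsad2, Bst2 and Gbp3. They were taken by gene symbol from the deposited kidney expression table, where 9 of the 9 symbols were found among 30277 genes, and 9 of 9 were among the 18273 genes that were abundant enough to be tested. The kidneys came from mice homozygous for the recessive Klotho mutation (KlKl), labelled as having renal failure, and from mice labelled as having healthy renal function (control). All animals were congenic on C57BL/6J, and the kidneys were perfused, dissected and flash frozen before polyadenylated RNA was sequenced. There were 4 male KlKl kidneys (46 to 59 days of age), 4 male control kidneys (46 to 48 days), 4 female KlKl kidneys (47 to 52 days) and 4 female control kidneys (47 to 57 days), 16 libraries in all. The male controls were 2 heterozygous (+/Kl) and 2 wild-type (+/+) samples, while the 4 female controls were all +/Kl and so carried a mutant allele too. As a germ-line mutation it is present in all tissues, not in the kidney alone. Klotho transcript (Kl) was 0.258 to 1.49 TPM in male KlKl kidneys against 7.82 to 11.7 TPM in male control kidneys, and 0.0728 to 0.222 TPM in female KlKl kidneys against 2.04 to 5.73 TPM in female control kidneys, so the KlKl and control libraries did not overlap in either sex. These values do not check the +/Kl and +/+ labels among the controls.

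Interferons are secreted proteins that warn neighbouring cells of viruses and other intracellular pathogens. Type I interferons act through the receptor chains Ifnar1 and Ifnar2 and the kinases Jak1 and Tyk2, and lead to a transcription factor complex in which Irf9 is a DNA-binding partner. That complex binds short repeats of GAAA in the promoters of target genes, the interferon-stimulated response element. Interferon gamma acts through Ifngr1, Ifngr2, Jak1 and Jak2 and mainly through a different promoter element. In the kidney, tubule, endothelial and immune cells can all express interferon response genes. Isg15 is a ubiquitin-like protein that is attached to other proteins, and Usp18 takes it off again and dampens signalling at the type I receptor. Irf7 is the transcription factor that amplifies type I interferon production. Ifit1 and its family member Ifit3 act on foreign RNA, Oasl2 belongs to the oligoadenylate synthetase family of RNA sensors, Rsad2 (viperin) makes an antiviral nucleotide, Bst2 (tetherin) holds budding virus particles at the cell surface, and Gbp3 is a guanylate-binding GTPase of the interferon gamma response.

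On mm39, the build of the deposited coordinates, Ifit3 (chromosome 19, 34560931 to 34566132, + strand) and Ifit1 (chromosome 19, 34618271 to 34627410, + strand) lie in the same cluster. Gbp3 lies on chromosome 3 (142265787 to 142278971, + strand), Isg15 on chromosome 4 (156283912 to 156285254, - strand), Oasl2 on chromosome 5 (115034997 to 115050296, + strand) and Usp18 on chromosome 6 (121222865 to 121247877, + strand). Irf7 lies on chromosome 7 (140842619 to 140846395, - strand), Bst2 on chromosome 8 (71986899 to 71990101, - strand) and Rsad2 on chromosome 12 (26492745 to 26506452, - strand). The spans cover exons, introns and untranslated ends. Ifit3 and Ifit1 have close family copies in the same cluster (Ifit3b among them), and Gbp3 has close relatives in its own, so the split of reads between such copies is uncertain. On the opposite strand, the long noncoding RNA Gm44148 overlaps 15716 bases of Usp18 and Phrf1 overlaps 46 bases of Irf7. Whether reads were counted by strand is not given in the sources used here, so Usp18 and Gm44148 (0.0187 TPM on average) may share reads.

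Promoter stretches are shown because interferon-activated factors bind their target genes there. RefSeq promoter windows of GRCm38.p6, 250 bases before to 50 bases after each annotated start, were available for 8 members (all but Usp18), and both strands were searched for GAAANNGAAA, whose reverse complement is TTTCNNTTTC. Gbp3 had 2 windows, for 2 annotated starts, and the other genes 1 each. A match was present in a window of 6 of the 8 genes (Gbp3, Ifit1, Ifit3, Isg15, Bst2 and Rsad2) and in 3.44% of 32851 windows of the same length genome-wide. The windows of Irf7 and Oasl2 and the second window of Gbp3 did not hold these letters. The stretches are printed below 5′ to 3′ in the direction of transcription, with capitals for the matches, which overlap one another in Gbp3, Isg15 and Bst2. They were read at chr3:142559979-142560034 (+) for Gbp3, chr19:34640765-34640833 (+) for Ifit1, chr19:34583353-34583436 (+) for Ifit3, chr4:156200855-156200916 (-) for Isg15, chr8:71537567-71537622 (-) for Bst2 and chr12:26456543-26456592 (-) for Rsad2.
Gbp3: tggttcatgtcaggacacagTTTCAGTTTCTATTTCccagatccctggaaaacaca
Ifit1: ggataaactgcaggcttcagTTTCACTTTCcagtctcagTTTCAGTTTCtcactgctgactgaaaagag
Ifit3: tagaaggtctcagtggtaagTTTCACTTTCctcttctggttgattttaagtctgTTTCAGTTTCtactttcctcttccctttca
Isg15: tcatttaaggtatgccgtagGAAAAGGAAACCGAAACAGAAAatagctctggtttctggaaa
Bst2: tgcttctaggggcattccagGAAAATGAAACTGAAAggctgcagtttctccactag
Rsad2: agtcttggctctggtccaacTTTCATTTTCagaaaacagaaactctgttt
Matches lay upstream of the start in all 6 genes. Gbp3, with 2 overlapping matches 45 and 39 bases upstream of the first of its 2 starts, and Isg15, with 3 overlapping matches between 78 and 66 bases upstream, had them closest to the start. Ifit1 had 2 separate matches (104 and 85 bases upstream), and so did Ifit3 (156 and 122 bases upstream). Bst2 had 2 overlapping matches (130 and 124 bases upstream) and Rsad2 had 1 (120 bases upstream). Unlike those of the other windows with a match, the first transcribed bases of the Bst2 window were not found in GENCODE. The start of Bst2, and its distances, are therefore less certain. A match describes the letters in the window and is not evidence of binding.

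Expression was deposited as TPM, in which a gene's reads are divided by a length and scaled to a fixed total. In this table the values behaved as reads divided by the whole gene span with introns, so genes with long introns have small values, and read numbers could be recovered from the steps between low values. Recovered depth was 13030396 to 20110108 reads in the 8 male libraries and 8210956 to 14506692 reads in the 8 female libraries. Every library has a name of its own, but the labels do not state that each came from a separate animal, so p-values measure the spread between these libraries. In the library names each sample number occurs once among the males and once among the females, as in 2 sets prepared or run apart, so sex and library set cannot be told apart. Female control 3 had the fewest reads and 15.2% of its TPM in ribosomal RNA genes, against 3.32 to 6.18% in the other libraries. On the deposited scale the bulk of all genes was shifted as well. The median log2 difference over the 18273 genes tested was 0.19 for KlKl minus control over both sexes and 0.33 for male minus female. Differences below are therefore read beside these medians, and beside a second scaling, median-ratio size factors, that brings them to about 0.

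Per unit of exon length, Bst2 and Ifit3 were the most abundant of the 9 transcripts and Oasl2 and Usp18 the least. For this comparison between genes, recovered reads were scaled to exon length (GENCODE M21) and library total, as RPKM. The mean RPKM over all 16 libraries was 18.7 ± 5.87 for Bst2, 17 ± 3.58 for Ifit3, 12 ± 4.04 for Rsad2, 6.17 ± 3 for Isg15, 6.09 ± 5.23 for Gbp3, 5.12 ± 3.13 for Ifit1, 3.73 ± 0.871 for Irf7, 1.3 ± 0.339 for Usp18 and 1.16 ± 0.243 for Oasl2 (SD, n = 16). A total of 3 steps in that order were larger than the SDs of both neighbours. They lay between Ifit3 and Rsad2, between Rsad2 and Isg15 and between Irf7 and Usp18. The other steps were not. These SDs span both sexes and leave aside that all genes were measured in the same libraries, so they do not settle the order of the other neighbours. The annotated exons of Irf7 fill nearly its whole span, which lowers its value on this scale. Bst2 headed the order in females (23.5 ± 4.93 in KlKl and 23.2 ± 4.94 in control kidneys), while in males Ifit3 stood at 17 ± 1.38 in KlKl and 13.7 ± 1.94 in control kidneys and Bst2 at 14.3 ± 1.21 and 13.8 ± 2.7 in the same groups (SD, n = 4 each). The recovered reads behind a library's value ranged from 28 to 129 for Isg15 and from 32 to 67 for Usp18, the shallowest members, and from 382 to 908 for Rsad2, the deepest.

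**Figure D1:**
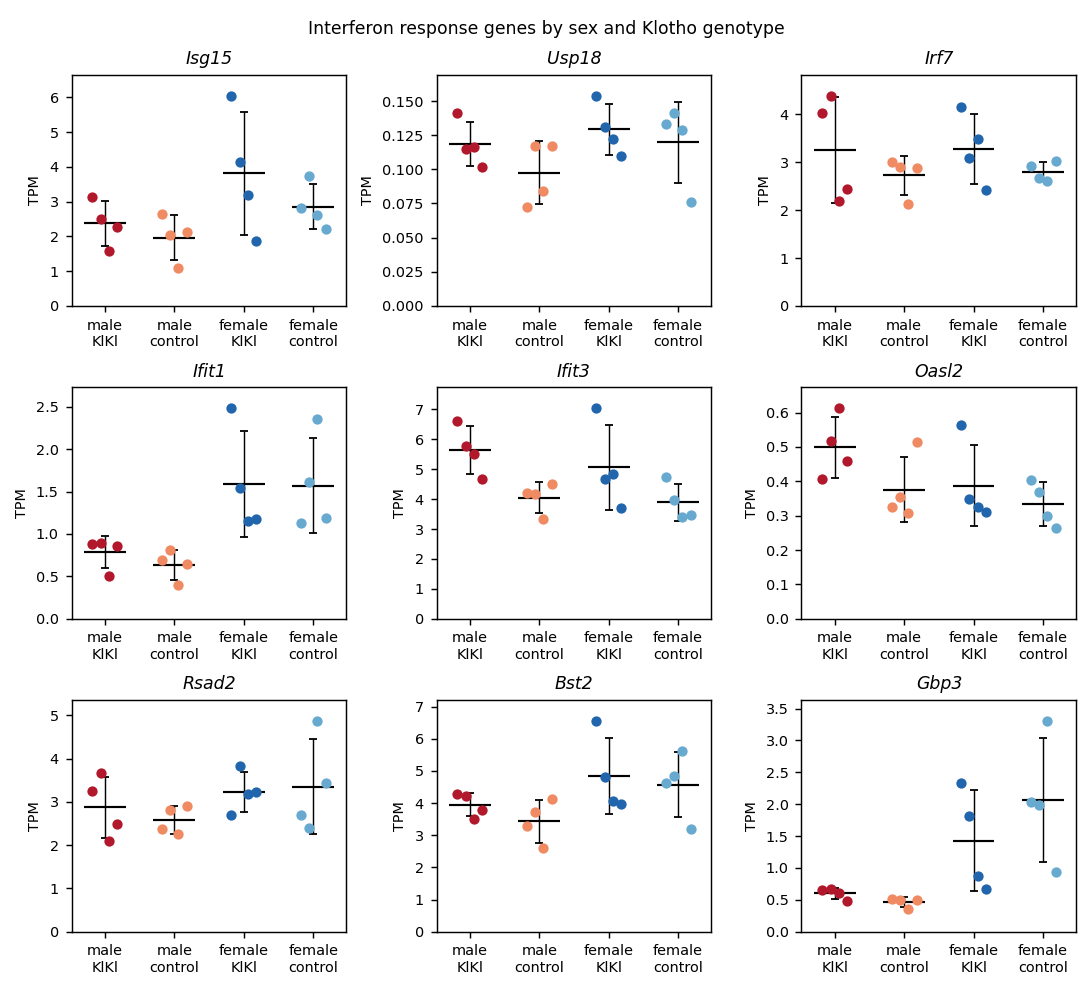
TPM of the 9 interferon response genes in each library, with male KlKl, male control, female KlKl and female control kidneys from left to right in each panel; points are libraries 1 to 4, bars the mean and whiskers the SD (n = 4 per group). Ifit1 sits lower in all 8 male libraries than in all 8 female libraries, Gbp3 is low in males and spread out in females, and the KlKl and control points overlap in all panels except Ifit3 in males.

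The first comparison asked whether kidneys with renal failure differed from healthy kidneys. No member passed the test for a difference between KlKl and control kidneys, in both sexes together, in males or in females. Ifit3, one of the RNA-binding effectors, had the largest difference over both sexes, 0.40 on the log2 scale, and Gbp3 (-0.11 ± 0.25, SE) had the only negative one. The calls came from limma on log2(TPM + 0.1) with Benjamini-Hochberg adjustment over all 18273 genes and a threshold of 0.05. By this test 0 of 9 members were called, against 4 of all genes tested (0.0219%) over both sexes, 4 (0.0219%) in males and 2 (0.0109%) in females. At an unadjusted p under 0.05, 1 of the 9 members (Ifit3) and 4058 of the 18273 genes tested passed over both sexes. The limma fits on median-ratio scaled values and on recovered reads (voom) also called 0 of 9 members. In those fits 0 members had an unadjusted p under 0.05 over both sexes, against 987 of 18132 and 1046 of 17648 genes. At 4 libraries per group, the 95% intervals of the members' differences were wide, and a missing call does not show that the levels were equal.

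Ifit3 was 6.61, 5.76, 5.5 and 4.66 TPM in male KlKl kidneys against 4.19, 4.18, 3.32 and 4.52 TPM in male control kidneys. All 4 male KlKl values lay above all 4 male control values. Such a higher, non-overlapping set occurred in 11% of all genes tested in males, and Ifit3 was the only member with it. In females Ifit3 was 7.03, 4.67, 4.83 and 3.7 TPM in KlKl kidneys against 4.75, 3.96, 3.41 and 3.46 TPM in control kidneys, and the groups overlapped. The log2 difference of Ifit3 was 0.46 ± 0.18 in males (SE; limma adjusted p = 0.261), 0.34 ± 0.18 in females (adjusted p = 0.745) and 0.40 ± 0.13 over both sexes (adjusted p = 0.189). The medians of all genes in these comparisons were 0.23, 0.14 and 0.19. The 95% interval over both sexes ran from 0.13 to 0.67, with the median of all genes inside it. After median-ratio scaling the difference over both sexes was 0.17, against about 0 for all genes. It did not reach an unadjusted p under 0.05 there. Library names fall into a CFK series (libraries 1 and 2 of each group) and a CFdk series (libraries 3 and 4). Ifit3 showed 0.47 ± 0.15 within the CFK libraries and 0.33 ± 0.17 within the CFdk libraries. The +/Kl male controls were the CFK ones and the +/+ male controls the CFdk ones. In males, name series and control genotype therefore cannot be told apart.

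Isg15, the ubiquitin-like modifier, was 3.13, 2.51, 1.57 and 2.28 TPM in male KlKl kidneys against 2.63, 2.03, 1.08 and 2.13 TPM in male control kidneys. In females it was 6.05, 4.15, 3.2 and 1.86 TPM in KlKl kidneys against 2.82, 3.75, 2.61 and 2.22 TPM in control kidneys. The groups overlapped in both sexes, and female KlKl kidneys held both the highest value of all 16 and a value below all 4 female controls. The difference over both sexes was 0.30 ± 0.23 (SE; limma adjusted p = 0.393). Usp18, which removes Isg15, averaged 0.118 ± 0.0161 TPM in male KlKl and 0.0975 ± 0.0228 TPM in male control kidneys, and 0.129 ± 0.0184 TPM in female KlKl and 0.12 ± 0.0294 TPM in female control kidneys (SD, n = 4 each). It was below 0.1 TPM in 3 of 16 libraries and, at that level, a small change was not detectable.

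The transcription factor Irf7 averaged 3.26 ± 1.11 TPM in male KlKl and 2.73 ± 0.411 TPM in male control kidneys, and 3.28 ± 0.727 TPM in female KlKl and 2.8 ± 0.2 TPM in female control kidneys (SD, n = 4 each). Its SD was over 2 times larger in KlKl than in control kidneys of either sex, a difference in spread that was not tested. Male KlKl libraries were at 4.03 and 4.39 TPM in the CFK series and at 2.2 and 2.43 TPM in the CFdk series. The RNA sensor relative Oasl2 averaged 0.498 ± 0.0877 TPM in male KlKl and 0.376 ± 0.0948 TPM in male control kidneys, and 0.387 ± 0.118 TPM in female KlKl and 0.334 ± 0.0632 TPM in female control kidneys. Rsad2 averaged 2.87 ± 0.708 TPM in male KlKl and 2.58 ± 0.318 TPM in male control kidneys, and 3.24 ± 0.466 TPM in female KlKl and 3.35 ± 1.1 TPM in female control kidneys. Over both sexes the differences were 0.20 ± 0.15 for Irf7, 0.24 ± 0.13 for Oasl2, 0.06 ± 0.15 for Rsad2, 0.15 ± 0.14 for Bst2, 0.14 ± 0.20 for Ifit1 and 0.11 ± 0.10 for Usp18 (log2 ± SE). Limma adjusted p-values of these 6 genes lay between 0.25 and 0.803. The direction of 5 of them (Irf7, Rsad2, Bst2, Ifit1 and Usp18) turned negative after median-ratio scaling, as did the median of the 9 members, which was 0.15 on the deposited scale (all genes 0.19) and -0.03 on the other (all genes about 0).

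In bulk tissue, fewer cells of a type and less RNA per cell cannot be told apart. Macrophage and monocyte markers summed to 20.8 to 53.9 TPM in male KlKl against 16.9 to 26.3 TPM in male control kidneys, and 28.4 to 29.5 TPM in female KlKl against 16.5 to 25.2 TPM in female control kidneys. All 12 of the 12 tested markers of this list had a positive difference over both sexes, with a median of 0.42 against 0.19 for all genes, and 0 of 12 were called. After median-ratio scaling 11 of 12 were positive, with a median of 0.19. Their part in the members' values was not tested. T and NK cell markers were close to the bottom of the scale, at 0.73 to 1.54 TPM summed in male KlKl against 0.789 to 1.32 TPM in male control kidneys and 1.28 to 1.49 TPM in female KlKl against 0.756 to 1.66 TPM in female control kidneys. Plasmacytoid dendritic cell markers, for the cells best known for secreting type I interferon, summed to 1.76 to 3.27 TPM in male KlKl against 1.43 to 3.87 TPM in male control kidneys and 1.77 to 2.82 TPM in female KlKl against 1.52 to 2.47 TPM in female control kidneys. Only 2 of the 7 listed markers of these cells were tested. The others reached at most 0.0993 TPM in any library, so the sums come almost wholly from the tested ones. Over both sexes, median KlKl differences were 0.30 for B and plasma cell (5 tested), 0.63 for neutrophil (2) and 0.11 for endothelial markers (10). Fibroblast and smooth muscle markers (9 tested) had 0.29 and erythrocyte markers (4) 0.96, against 0.19 for all genes, with 0 calls in each list. Only 2 of 8 listed neutrophil markers were tested, and the list's sum ran from 0.164 to 7.11 TPM within male KlKl kidneys. The erythrocyte median was 2.10 in males, with sums of 96 to 479 TPM in male KlKl against 11 to 142 TPM in male control kidneys, and -0.06 in females (-0.23 after median-ratio scaling), with sums of 16.5 to 58.1 TPM in female KlKl against 3.31 to 114 TPM in female control kidneys. Kidney tubule markers summed to 273 to 770 TPM over the 16 libraries, as the labelled tissue would have, with a median KlKl difference of 0.25. After median-ratio scaling the endothelial median was -0.07 and the tubule median 0.03. On that scale B and plasma cell markers had 0.08, neutrophil 0.46, fibroblast and smooth muscle 0.10 and erythrocyte markers 0.73. No marker gene in the table was at 0 in every library.

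**Figure D2:**
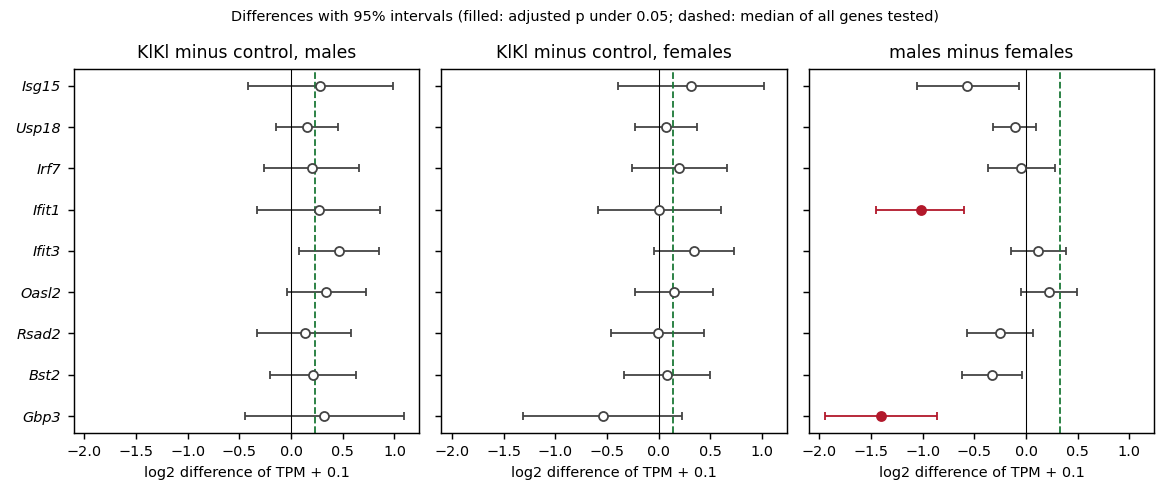
Log2 difference of TPM + 0.1 for KlKl minus control in males, KlKl minus control in females, and males minus females (mean of both genotypes), with 95% intervals from limma; filled points passed an adjusted p of 0.05, and the dashed line is the median of all genes tested. No KlKl difference is filled, while Ifit1 (-1.02) and Gbp3 (-1.40) are filled for males minus females and all 9 genes lie left of that panel's dashed line at 0.33.

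The second comparison set male against female kidneys, averaged over both genotypes. Gbp3, the guanylate-binding GTPase, and Ifit1, the RNA-binding effector, were lower in males than in females, by 1.40 and 1.02 on the log2 scale. The other 7 members did not pass the test on the deposited scale, yet all 9 lay below the median of all genes, which stood at 0.33. Isg15 and Bst2 were next, at -0.57 and -0.33. Of 9 members, 0 were called higher and 2 lower in males, against 46.5% and 7.2% of all genes tested. On median-ratio scaled values, where 25.7% of genes were higher and 21.5% lower in males, 7 of 9 members were lower, and with voom on recovered reads (27% higher, 25.9% lower) 8 of 9 were lower. The members' median was -0.25 against 0.33 for all genes on the deposited scale, -0.63 against 0.02 after median-ratio scaling and -0.66 against -0.01 with voom.

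Gbp3 was 0.655, 0.67, 0.606 and 0.478 TPM in male KlKl and 0.519, 0.494, 0.349 and 0.493 TPM in male control kidneys, against 2.34, 1.82, 0.877 and 0.663 TPM in female KlKl and 2.03, 1.99, 3.3 and 0.938 TPM in female control kidneys. The 8 male values were tightly grouped, with a mean of 0.533 ± 0.106 TPM, and the 8 female values were spread widely around 1.74 ± 0.885 TPM (SD, n = 8 each). The lowest female value (KlKl 4, 0.663 TPM) fell just under the highest male value (KlKl 2, 0.67 TPM), the only overlap. The log2 difference was -1.40 ± 0.25 (SE; limma adjusted p = 0.000334), and it was -1.74 after median-ratio scaling and -1.94 with voom. It stayed called in each of the 16 fits that left out 1 library. Within the name series it was -1.65 for CFK and -1.15 for CFdk libraries, and in the CFdk libraries alone it did not pass (limma adjusted p = 0.05).

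Ifit1 was 0.887, 0.893, 0.504 and 0.86 TPM in male KlKl and 0.698, 0.817, 0.397 and 0.645 TPM in male control kidneys, against 2.48, 1.54, 1.15 and 1.18 TPM in female KlKl and 1.13, 1.61, 2.35 and 1.19 TPM in female control kidneys. Every female value lay above every male value, a lower and non-overlapping male set that occurred in 0.558% of all genes tested. The 8 males averaged 0.713 ± 0.187 TPM and the 8 females 1.58 ± 0.546 TPM (SD, n = 8 each). The log2 difference was -1.02 ± 0.20 (SE; limma adjusted p = 0.000537), and it passed the test in all 30 alternative fits, between -1.51 and -0.57. It was -0.91 within CFK and -1.14 within CFdk libraries.

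Bst2 was 4.27, 4.21, 3.51 and 3.79 TPM in male KlKl and 3.27, 3.73, 2.59 and 4.14 TPM in male control kidneys, against 6.54, 4.8, 4.07 and 3.97 TPM in female KlKl and 4.63, 4.83, 5.63 and 3.2 TPM in female control kidneys. The sexes overlapped, with 3 female libraries inside the male range. Bst2 (-0.33 ± 0.14, limma adjusted p = 0.0549) and Isg15 (-0.57 ± 0.23, adjusted p = 0.0523) narrowly missed the threshold. Both were called without female control 4 (Isg15 -0.62, Bst2 -0.41) and without female KlKl 4 (Isg15 -0.71, Bst2 -0.37), which brought the number of members called to 4. Within name series the differences were -0.64 (Isg15) and -0.41 (Bst2) in CFK and -0.49 and -0.25 in CFdk libraries. Both genes also passed when only genes of 1 TPM or more were tested, with the name series as a covariate, and with library weights.

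The remaining members depended on the scaling, and Usp18 also on the pseudocount. Ifit3 was 4.84 ± 1.05 TPM in males and 4.48 ± 1.18 TPM in females (SD, n = 8 each), a log2 difference of 0.12 ± 0.13 on the deposited scale that became -0.26 after median-ratio scaling and -0.28 with voom, where it was called. Oasl2 was 0.437 ± 0.107 TPM in males and 0.361 ± 0.0923 TPM in females, a difference of 0.22 ± 0.13 that became -0.09 and -0.14 and was called under neither. Without female KlKl 1 alone, Oasl2 was called higher in males on the deposited scale (0.30). Irf7 (-0.05 on the deposited scale), Usp18 (-0.11) and Rsad2 (-0.25) did not pass there. They were called lower in males after median-ratio scaling, at -0.42, -0.32 and -0.63, and with voom, at -0.44, -0.61 and -0.66. On the deposited scale Usp18 was -0.19 with a pseudocount of 0.01 and -0.02 with a pseudocount of 1. The order of the members by size of the difference, with Gbp3 and Ifit1 farthest below all genes and Oasl2 and Ifit3 nearest to them, was the same at both ends under the 3 scalings.

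**Figure D3:**
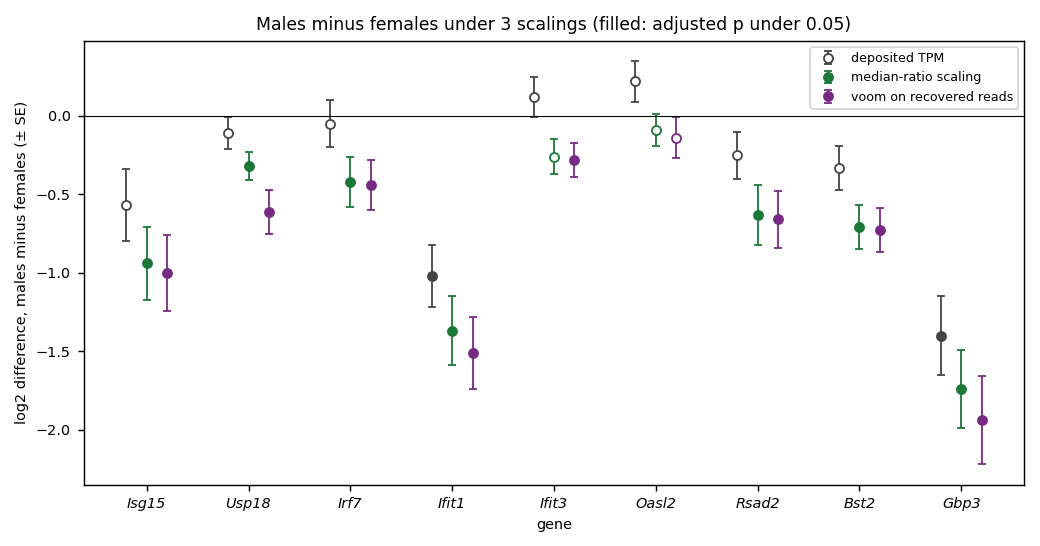
Log2 difference, males minus females, of each gene on the deposited TPM scale (grey), after median-ratio scaling (green) and with voom on recovered reads (purple), with SE whiskers; filled points passed an adjusted p of 0.05. Filled points number 2, 7 and 8 under the 3 scalings, all are below 0, and Ifit3 and Oasl2 are above 0 on the deposited scale alone.

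Marker lists were compared between the sexes as well. Their counts stand beside 46.5% of all genes called higher and 7.2% called lower in males on the deposited scale. After median-ratio scaling these shares were 25.7% and 21.5%. Of 14 kidney tubule markers tested, 10 were higher and 0 lower in males, with a median of 0.62 against 0.33 for all genes, and after median-ratio scaling 6 were higher and 2 lower. Of 9 fibroblast and smooth muscle markers, 0 were higher and 4 lower in males, with a median of -0.34, and their sum was 11.7 to 14.5 TPM in male KlKl and 7.78 to 12.1 TPM in male control kidneys against 15.9 to 20.2 TPM in female KlKl and 12.5 to 16.9 TPM in female control kidneys. After median-ratio scaling 8 of these 9 were lower in males, with a median of -0.70. Endothelial markers (4 higher and 1 lower of 10, median 0.11) and macrophage and monocyte markers (2 higher and 0 lower of 12, median 0.26) turned to 1 higher and 5 lower (median -0.25) and 1 higher and 3 lower (median -0.07) after that scaling. The part of these cell types in the sex difference of Gbp3 and Ifit1 was not tested.

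The third comparison asked whether the response to the Klotho genotype differed between the sexes. It did not pass the test for any member, and 0 of the 18273 genes tested were called (0%), with 502 genes and 0 members at an unadjusted p under 0.05 (limma). Limma on median-ratio scaled values and voom also called 0 genes. Gbp3 had the largest difference among the members. It was 0.32 ± 0.36 in males (log2 ± SE; KlKl mean 0.602 ± 0.0875 TPM, control mean 0.464 ± 0.0774 TPM) and -0.54 ± 0.36 in females (KlKl mean 1.42 ± 0.79 TPM, control mean 2.06 ± 0.964 TPM; SD, n = 4 each). The male effect minus the female effect was 0.86 ± 0.51, with a 95% interval from -0.22 to 1.95 (limma adjusted p = 1). Within the CFK libraries the female difference of Gbp3 was 0.03 and that between the sexes 0.30, and within the CFdk libraries they were -1.12 and 1.43. The female CFdk controls were control 3 at 3.3 TPM, the library with the fewest reads, and control 4 at 0.938 TPM. Ifit1 showed 0.27 ± 0.28 in males and 0.005 ± 0.28 in females, and for the other 7 members the difference between the sexes' effects lay between -0.03 and 0.19.

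Within groups, the 9 genes tended to be high or low in the same libraries. Female KlKl 1 had the highest value of its group for 8 of 9 members (Rsad2 was the exception), and female KlKl 4 had the lowest for 7 of 9. Male control 3 had the lowest for 8 of 9, and female control 4 and male KlKl 3 each had the lowest for 5 of 9. After group means were removed, the correlation across the 16 libraries between members had a median of 0.51 over 36 pairs (Pearson), from -0.35 to 0.86, and exceeded 0.5 in 20 pairs. Gbp3 and Bst2 were the closest pair, at 0.86. Rsad2 stood apart, with correlations of -0.35 to 0.42 to the other members, and the median over the 28 pairs without it was 0.62. Female KlKl 1 is a CFK library, and the libraries named above as lowest are CFdk ones. The members' mean deviation, scaled to each gene's SD, was -0.00 to 1.27 in CFK libraries and -1.05 to 0.61 in CFdk libraries. Name series was not removed, and its part in these correlations was not tested. All genes of a library share its depth, its scaling and its tissue sample, so these values describe the libraries and were not tested.

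**Figure D4:**
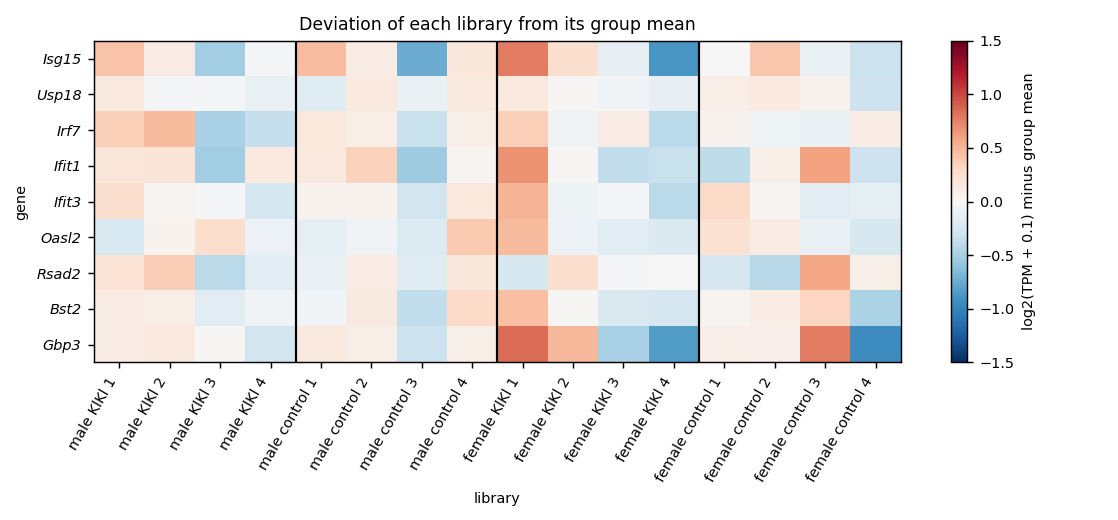
Deviation of log2(TPM + 0.1) from the group mean for each member (rows) in each library (columns, grouped as male KlKl, male control, female KlKl and female control); red is above and blue below the group mean. Female KlKl 1 is red for 8 of 9 genes, male control 3 is blue for all 9 and the lowest of its group for 8 of 9, and the Rsad2 row departs from the others.

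Of 7662 genes with a mean of 0.5 TPM or more, those whose deviations were most like the members' mean pattern were Psmb8 (r = 0.90), Ifi27l2a (0.88), Psmb9 (0.88), Lsm4 (0.87), Fabp4 (0.87), Irgm1 (0.87), Cox7b (0.86), Sfn (0.85) and Slc25a17 (0.84; Pearson, n = 16 libraries, group means removed). Psmb8 and Psmb9 are subunits of the immunoproteasome, Ifi27l2a is an interferon-inducible mitochondrial protein and Irgm1 is an interferon-inducible GTPase. These 4 are on the interferon gene lists used here, as are 0.901% of the 7662 genes. The other 5 are not: Lsm4 is an RNA-processing factor, Fabp4 a fatty acid carrier, Cox7b a respiratory chain subunit, Sfn a regulatory adaptor and Slc25a17 a peroxisomal carrier. After median-ratio scaling, 7 of these 9 were again among the first 10. Name series was not removed here either. Psmb8 (-0.43 ± 0.15, limma adjusted p = 0.0238) and Psmb9 (-0.49 ± 0.12, adjusted p = 0.00306) were lower in males than in females, also after median-ratio scaling (-0.81 and -0.83), while Irgm1 was higher (0.42 ± 0.15, adjusted p = 0.0269) on the deposited scale and at 0.04 after median-ratio scaling.

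Further genes of the interferon system were grouped by role, from ligands to effectors. In each of the 6 groups 0 genes were called between KlKl and control kidneys, over both sexes or in either sex. Among ligands and receptors, 8 of 12 listed genes were in the table and 6 were tested. The ligands Ifng and Ifnk were under the abundance filter, with at most 4 and 3 recovered reads in any library. Higher levels in males were called for 3 receptor chains, Ifnar1 (0.68 ± 0.13), Ifngr1 (0.68 ± 0.11) and Ifngr2 (0.63 ± 0.10), each also after median-ratio scaling (0.32, 0.32 and 0.29). After that scaling 2 further chains were called lower in males, Ifnar2 (-0.48, limma adjusted p = 2.21e-05), the partner of Ifnar1, and Il10rb (-0.35, adjusted p = 0.00148), a chain of the interferon lambda receptor. The counts of this list and of those that follow stand beside 46.5% of all genes called higher and 7.2% called lower in males on the deposited scale, and 25.7% and 21.5% after median-ratio scaling. Ifnar1 averaged 1.79 ± 0.279 TPM in male KlKl and 1.46 ± 0.191 TPM in male control kidneys, against 1.06 ± 0.0795 TPM in female KlKl and 0.91 ± 0.277 TPM in female control kidneys (SD, n = 4 each).

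Of 17 signalling genes tested, 6 were higher and 0 lower in males, with a list median of 0.26 against 0.33 for all genes: the kinases Jak1 (0.62), Jak2 (0.53) and Tyk2 (0.55), the factors Irf2 (0.31) and Irf5 (0.64), and the phosphatase Ptpn6 (0.50). After median-ratio scaling the 3 kinases were still called higher (0.28, 0.22 and 0.23), Irf2, Irf5 and Ptpn6 were not, and 6 signalling genes were lower. Of 18 nucleic acid sensors and adaptors, 7 were higher and 3 lower in males, or 2 and 6 after median-ratio scaling. Mavs, the mitochondrial adaptor of the RNA sensors, was higher in males under both (0.89 and 0.52). Trex1, an exonuclease that clears cytosolic DNA, was lower in males under both (-0.73 and -1.10), and Myd88, the adaptor of Toll-like receptors, was higher on the deposited scale alone (0.51, then 0.14). Between KlKl and control kidneys over both sexes these 3 showed 0.54 ± 0.21 (Trex1), 0.41 ± 0.13 (Mavs) and 0.27 ± 0.14 (Myd88), with limma adjusted p-values from 0.189 to 0.239.

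Of 45 other interferon-stimulated effectors tested, 9 were higher and 1 lower in males, and after median-ratio scaling 7 were higher and 17 lower of 46. The list's median was 0.09 against 0.33 for all genes on the deposited scale, and -0.24 against 0.02 after median-ratio scaling. Its largest KlKl differences were in Cxcl10, a chemokine for T cells (0.64 ± 0.22, limma adjusted p = 0.191), Ifitm1, which hinders virus entry (0.55 ± 0.27, adjusted p = 0.234), and Ifit3b, the close copy of Ifit3 (0.51 ± 0.14, adjusted p = 0.189). Ifit3b averaged 1.25 ± 0.18 TPM in male KlKl and 0.863 ± 0.143 TPM in male control kidneys, and 1.09 ± 0.187 TPM in female KlKl and 0.746 ± 0.271 TPM in female control kidneys (SD, n = 4 each). The list's median KlKl difference over both sexes was 0.17 against 0.19 for all genes.

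Of 13 interferon gamma-induced GTPases tested, relatives of Gbp3 among them, Irgm1 was higher and Gbp4 (-0.32 ± 0.13) and Gbp7 (-0.33 ± 0.12) were lower in males. After median-ratio scaling 0 were higher and 3 lower: Gbp4 (-0.58), Gbp7 (-0.68) and Tgtp2 (-0.89, limma adjusted p = 0.0072), while Irgm1 was not called (0.04, adjusted p = 0.828). Gbp7 averaged 1.04 ± 0.0611 TPM in male KlKl and 0.849 ± 0.164 TPM in male control kidneys, against 1.22 ± 0.286 TPM in female KlKl and 1.21 ± 0.197 TPM in female control kidneys (SD, n = 4 each), a smaller gap than that of Gbp3. Of 19 antigen presentation genes, 5 were higher and 4 lower in males, or 2 and 8 after median-ratio scaling. H2-K1, a class I heavy chain, was higher in males on the deposited scale (0.32) and at -0.06 after median-ratio scaling. The KlKl differences of H2-K1 (0.40 ± 0.10), Tap2, a peptide transporter chain (0.37 ± 0.15), and H2-Q4, another class I heavy chain (0.33 ± 0.15), had limma adjusted p-values from 0.189 to 0.226.

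**Figure D5:**
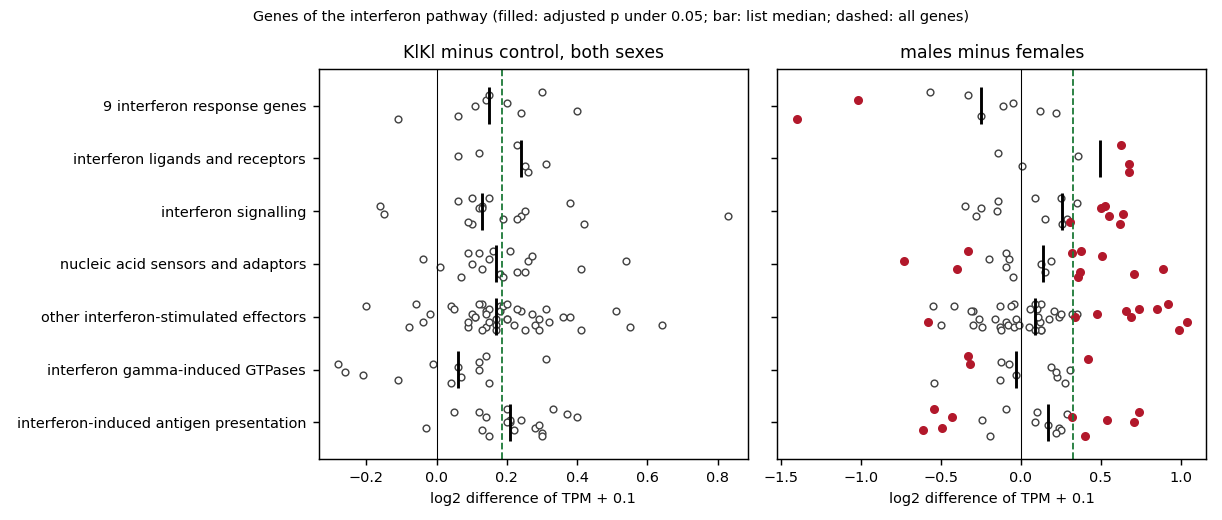
Log2 difference of TPM + 0.1 of each tested gene on 7 lists of the interferon system, for KlKl minus control over both sexes (left) and males minus females (right); filled points passed an adjusted p of 0.05, black bars are list medians and dashed lines the median of all genes tested (0.19 and 0.33). No point is filled on the left, while on the right, where 46.5% of all genes were called higher, receptors and signalling genes are filled above 0 only and the 9 response genes below 0 only; after median-ratio scaling 2 receptors and 6 signalling genes were called lower.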

How the data were processed

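The members, the gene lists and the tests were chosen with earlier results of these data known. One table of TPM per gene was deposited for the 16 libraries. The authors used Partek and the mouse build mm39, per the submitters' processing notes; the aligner, the annotation and the counting rule are not stated there, and libraries were made with a strand-marking kit, per the labels' protocols. The deposited TPM sum to 309446 in each library and behave as reads (plus 0.0001) per gene span, introns included; 81.1% of values worth under 20 reads came out whole within 0.1 read. Because the total is fixed, a change in a few abundant genes would move all others. Mitochondrial genes took 30.7 to 47.5% of TPM and pseudogenes 30.4 to 37.9%. Their part in the median differences of all genes was not tested.

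Genes with 0.1 TPM or more in at least 4 libraries entered limma 3.58.1 (R 4.3.3) on log2(TPM + 0.1), a scale that understates changes of low genes, with a mean for each of the 4 groups (12 residual degrees of freedom) and Benjamini-Hochberg adjustment. Main results follow this fit. Alternatives were pseudocounts of 0.01 and 1, a filter of 1 TPM and none, median-ratio scaling, library weights, name series and replicate number as covariates, heterozygous controls alone, limma voom on recovered reads with median-ratio library sizes and each library left out. The fit on heterozygous controls left out the male CFdk controls, which were the +/+ ones. The scripts were tested on simulated data. Named beside the members were Kl, the called genes of each list (or, where none or more than 8 were called, the 3 with the largest KlKl difference of those at 0.5 TPM or more) and the 10 genes most like the members, of which 1 is not reported here. Replicate numbers did not pair the libraries. No 2 libraries were alike within sampling noise. Depth ranged from 8210956 to 20110108 reads per library, with the male libraries deeper on the whole.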

Additional observations from a re-analysis of the deposited data

Results flagged for a closer look

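In 4 of the 36 member-by-group sets, 1 library stood farther from the other 3 than Dixon's 95% critical value for 4 values allows. Chance alone gives about 1 in 20 such sets. Gbp3 was 0.349 TPM in male control 3, and the other male controls had 0.493 to 0.519 TPM. Irf7 was 2.12 TPM in the same library, with the other male controls at 2.88 to 3.01 TPM. Ifit1 was 0.504 TPM in male KlKl 3, with the other male KlKl libraries at 0.86 to 0.893 TPM. Oasl2 was 0.563 TPM in female KlKl 1, with the other female KlKl libraries at 0.312 to 0.348 TPM. Of these, only female KlKl 1 changed the call of a member when left out: without it, Oasl2 was called higher in males than in females (0.30).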

How the results depend on the processing

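Gbp3 and Ifit1 kept their lower level in males in all 30 alternative fits, and passed the test in 29 and 30 of them. No member was called between KlKl and control kidneys, or for the sexes' difference in that effect, in any fit. Values that changed sign or side are given here, and their causes were not tested. Fits on 1 name series and median-ratio scaling without female control 3 were chosen after seeing the data. With 4 libraries per group and as few as 28 reads for Isg15 in a library, small differences were not detectable.

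The number of members called lower in males (2) was 4 with a 1 TPM filter, alone or with pseudocount 1, with the name series covariate, with library weights and in CFK libraries alone, 7 after median-ratio scaling (6 without female control 3), 8 with voom, and 2 to 4 when 1 library was left out. With the replicate block it was 3 (Isg15 was added), and no other call of a member changed; the numbers pair no libraries, since 4 of 24 same-numbered pairs correlated above 0.1 and 4 of 16 libraries correlated best with their own number.

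Counts over all genes moved as follows. KlKl over both sexes (4) gave 95 with weights, 0 in CFdk libraries, 2 after median-ratio scaling without female control 3 and 2 to 4 leaving out 1 library. In males (4) it gave 2 with pseudocount 1, 7 unfiltered, 8 with filter and pseudocount 1, 1 after median-ratio scaling, 25 with weights, 1 with heterozygous controls, 9 in CFK, 0 in CFdk and 0 to 10 leaving out 1 library (0 without male control 1 or 3, 10 without male KlKl 3). In females (2) it gave 1 with filter 1, with or without pseudocount 1, 9 with weights, 0 in CFK, 8 in CFdk and 2 to 8 leaving out 1 library. The sexes' difference in effect (0) gave 1 with heterozygous controls, 1 in CFdk and 0 to 1 leaving out 1 library. Male minus female (9820) gave 5459 with filter 1, 5493 with filter and pseudocount 1 and 6196 in CFdk.

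Signs of KlKl differences over both sexes turned after median-ratio scaling for Ifit1 (-0.08), Irf7 (-0.03), Bst2 (-0.08), Usp18 (-0.02) and Rsad2 (-0.17), and with voom for the same genes (-0.04, -0.01, -0.07, -0.01 and -0.17). They turned after median-ratio scaling without female control 3 for Irf7 (-0.02), Bst2 (-0.01) and Rsad2 (-0.05), in CFdk for Ifit1 (-0.08), Irf7 (-0.02) and Rsad2 (-0.25), and in CFK for Gbp3 (0.18). In males they turned after median-ratio scaling for Isg15 (-0.001), Irf7 (-0.08), Bst2 (-0.08), Usp18 (-0.004) and Rsad2 (-0.16), and without female control 3 at -0.0002, -0.08, -0.08, -0.004 and -0.16. They also turned in males with voom for Irf7 (-0.07), Bst2 (-0.07) and Rsad2 (-0.17), in CFdk for Irf7 (-0.09) and Rsad2 (-0.15), and with heterozygous controls for Isg15 (-0.002). In females they turned after median-ratio scaling for Ifit1 (-0.16), Bst2 (-0.09) and Usp18 (-0.03), with voom for the same genes (-0.11, -0.07 and -0.03), and in CFdk for Ifit1 (-0.49) and Bst2 (-0.08). With weights Usp18 (-0.001) and Rsad2 (0.30) turned in females, in CFK Gbp3 (0.03) and Rsad2 (0.33), and after median-ratio scaling without female control 3 Rsad2 (0.06).

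Male minus female turned for Ifit3 after median-ratio scaling (-0.26; -0.28 without female control 3) and voom (-0.28), and for Oasl2 in the same fits (-0.09, -0.10 and -0.14) and in CFK (-0.05). Irf7 turned with weights (0.06), heterozygous controls (0.02) and CFK (0.15), and Rsad2 in CFK (0.06).

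Leaving out 1 library at a time turned signs within these ranges. Over both sexes, KlKl minus control was -0.27 to 0.03 for Gbp3 and -0.01 to 0.15 for Rsad2. In females it was -0.22 to 0.21 for Ifit1, -0.008 to 0.22 for Oasl2, -0.08 to 0.19 for Bst2, -0.03 to 0.12 for Usp18 and -0.14 to 0.18 for Rsad2. Male minus female was -0.13 to 0.04 for Irf7.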
